A study of Mus musculus with 8 samples.

Results

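The subject here is the longest stretches of H3K36me3 in mouse embryonic stem cells, and what was left inside them after knockdown of Setd2. A domain was defined as a control H3K36me3 peak longer than 10000 bp on chromosomes 1 to 19. The control list held 30634 peaks, of which 1527 met this rule. No peak of this length lay on the X or Y chromosome, but few control peaks of any length did, as 30499 of the 30634 were autosomal. The domains were 5.01% of the autosomal control peaks and held 20.1% of their base pairs (22.2 Mb) and 24.4% of their tags. They were chosen by their length in the control list, so their length, tags and fold in control are given as a description with no test.

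The measurements were H3K36me3 ChIP-seq and input libraries, with 2 replicates of each in 2 conditions. Both conditions used feeder-free mouse embryonic stem cells that carried a doxycycline-inducible knockdown of Setd2. They were grown as spheres on gelatin in serum-free 2i medium, which contained the MEK inhibitor PD0325901 (1 µM), the GSK3 inhibitor CHIR99021 (3 µM) and LIF (1000 U/ml). The control group was kept without doxycycline, and the knockdown group was exposed to it at 1 µg/ml for 4 days. A ChIP peak list does not measure how much Setd2 RNA or protein was left. The labels number the replicates without saying whether they came from separate cultures. Peaks were called by the authors on merged replicates, so each condition has 1 list and no spread between replicates, and no test between conditions could be made. Intervals given below are exact Clopper-Pearson 95% intervals and cover counting error only. After removal of duplicates the caller kept 36244210 ChIP tags in control and 29416169 in knockdown, so the knockdown list was called at lower depth. As a look at the labelled cell type, 17 of 19 autosomal naive pluripotency markers carried a control peak. The counts were 2 of 10 for fibroblast, 1 of 10 for primitive endoderm, 3 of 9 for neural, 3 of 8 for mesoderm and 6 of 8 for trophoblast markers. Over all autosomal protein-coding genes 9741 of 20665 carried one, and of cytosolic ribosomal protein genes 77 of 81 did. A control peak is therefore no mark of cell type by itself, and the trophoblast count was high too.

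H3K36me3 is histone H3 carrying 3 methyl groups on its lysine 36. It is written by SETD2, which travels with elongating RNA polymerase II, and it therefore lies over the bodies of transcribed genes and is usually strongest away from the promoter, towards the 3′ end. Proteins with PWWP and related domains, among them DNMT3A, DNMT3B, LEDGF (Psip1) and MSH6, bind it and link it to DNA methylation, splicing and mismatch repair. Coordinates are those of the mm10 build, and genes, promoters and microRNAs are from RefSeq for assembly GRCm38.p6.

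Domains were 10006 to 36280 bp long, with a median of 13100 bp and quartiles of 11290 and 16418 bp. They held 48.3 to 149 tags per kb (median 62.8), compared with a median of 45.7 for autosomal peaks up to 10 kb. The caller's fold over background, the authors' own value, was 3.51 to 11.8 with a median of 6.34. The peaks nearest the length limit were alike on both sides of it. The 5 domains just above it lay over Scamp4 and Adat3, Srebf1 and Rai1, Ccdc88c, Washc4 and Drg2, at 52.5 to 72.2 tags per kb. The 5 peaks just below it lay over Tut7, Terf2, Grwd1, Lifr and Sugp1, at 54.1 to 69.9 tags per kb. None of these 10 was overlapped by a knockdown peak.

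The sequences that follow show where domains stand relative to transcription starts. Each is the 250 bases upstream of a RefSeq start, 5′ to 3′ on the strand of the gene, with every CpG dinucleotide in capitals. Agrn and Prpf8 are shown because their domains were among the 10 with the most base pairs still under knockdown peaks, and Eif2s2 because its 5′ end lay inside the domain of which it is the main gene. Agrn, which encodes the basement membrane proteoglycan agrin, has a start at chr4:156197488 outside its domain, with 35 CpG in the window chr4:156197489-156197738, minus strand, and a second start at chr4:156186259 inside the domain, with 8 CpG in chr4:156186260-156186509, minus strand. Prpf8, which encodes the core splicing factor of the U5 particle, has its window at chr11:75486527-75486776, plus strand, with 13 CpG. Eif2s2, which encodes the beta subunit of the translation initiation factor eIF2, has its window at chr2:154892907-154893156, minus strand, with 18 CpG. The Eif2s2 domain ends at chr2:154892956, so most of this window lies outside it.
Agrn, start outside the domain: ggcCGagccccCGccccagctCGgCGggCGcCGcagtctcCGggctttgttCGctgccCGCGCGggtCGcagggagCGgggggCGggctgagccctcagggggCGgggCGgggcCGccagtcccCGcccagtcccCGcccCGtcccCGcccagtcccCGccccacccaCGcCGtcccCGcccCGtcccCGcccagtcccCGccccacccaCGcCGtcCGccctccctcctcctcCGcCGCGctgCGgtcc
Agrn, start inside the domain: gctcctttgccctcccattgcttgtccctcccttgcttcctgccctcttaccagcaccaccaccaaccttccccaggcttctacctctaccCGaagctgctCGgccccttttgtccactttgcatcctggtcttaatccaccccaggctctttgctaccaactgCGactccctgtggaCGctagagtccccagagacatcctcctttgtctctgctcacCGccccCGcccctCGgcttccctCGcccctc
Prpf8: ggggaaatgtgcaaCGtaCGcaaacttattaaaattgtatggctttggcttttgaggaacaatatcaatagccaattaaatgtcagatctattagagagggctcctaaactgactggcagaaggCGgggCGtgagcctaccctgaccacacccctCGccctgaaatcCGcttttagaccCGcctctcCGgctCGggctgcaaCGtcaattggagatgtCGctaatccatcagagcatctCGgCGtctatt
Eif2s2: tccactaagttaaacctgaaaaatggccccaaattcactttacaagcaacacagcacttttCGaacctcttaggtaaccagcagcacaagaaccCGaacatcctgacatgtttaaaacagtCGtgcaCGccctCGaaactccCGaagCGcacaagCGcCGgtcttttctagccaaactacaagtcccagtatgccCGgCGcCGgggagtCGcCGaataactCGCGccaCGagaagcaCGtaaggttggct

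Domain genes mostly had CpG-rich promoters that lay outside the domain. Of the 1362 genes with the largest overlap in a domain, 1121 had a promoter in the table. Their first promoter held a median of 18 CpG per 250 bases (quartiles 13 and 25), against 17 for all genes with a control peak and 10 for all autosomal protein-coding genes. The letters TATAAA, searched on both strands of the same window, occurred in 4.91% of them, in 5.78% of the promoters of genes with a control peak and in 12.5% of all 16457. A match is a description of letters and not evidence of a working TATA box. Of the 1121 starts, 12 (1.07%) lay in any control peak and 3 in a domain. The share in any control peak was 1.06% (175 of 16457) over all autosomal protein-coding genes and 2.23% (175 of 7855) over genes with a control peak. A start outside the mark was thus not particular to domain genes. Over all autosomal protein-coding genes, 22 of 16457 first starts lay in a domain. A further 20 genes had an additional RefSeq start inside a domain, among them Ddx17, Vegfa, Nfya, Nedd4 and Kmt5a, so for these genes the domain covers an annotated start.

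The domains lay along genes and began well inside them. Protein-coding genes covered 95.3% of domain base pairs, compared with 85.3% for shorter autosomal peaks. Of the domains, 1232 touched 1 protein-coding gene, 279 touched 2, 5 touched 3, 1 touched 4 and 10 touched none. The strand was known for the main gene of 1256 domains. Among these the gene's 5′ end lay inside the domain in 2 (0.159%, 0.019 to 0.574), against 0.388% of the genic control peaks up to 10 kb. The 2 were Eif2s2 (chr2:154870258-154892956), whose domain reached past both ends of the gene, and Gm14393, a predicted gene. The 3′ end lay inside the domain in 599 (47.7%, 44.9 to 50.5), against 13.0% of the genic control peaks up to 10 kb and 28.9% of those of 5 to 10 kb. Among the 1025 domains over 1 gene it was 37.9%.

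The edges describe the same arrangement in base pairs. The upstream edge stood a median of 10064 bp inside the 5′ end (quartiles 2847 and 25706), and in 59 domains it stood within 1 kb of it. The downstream edge stood a median of 291.5 bp before the 3′ end, and domains that ran past the 3′ end did so by a median of 1689 bp. Prpf8 is an example of a gene filled nearly from end to end, with its domain starting 1620 bp inside the 5′ end and running past the 3′ end. The Agrn domain started 8816 bp inside and also ran past the 3′ end. The plot of domain edges shows a sharp left border at the 5′ end and a peak around the 3′ end.

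**Figure D1:**
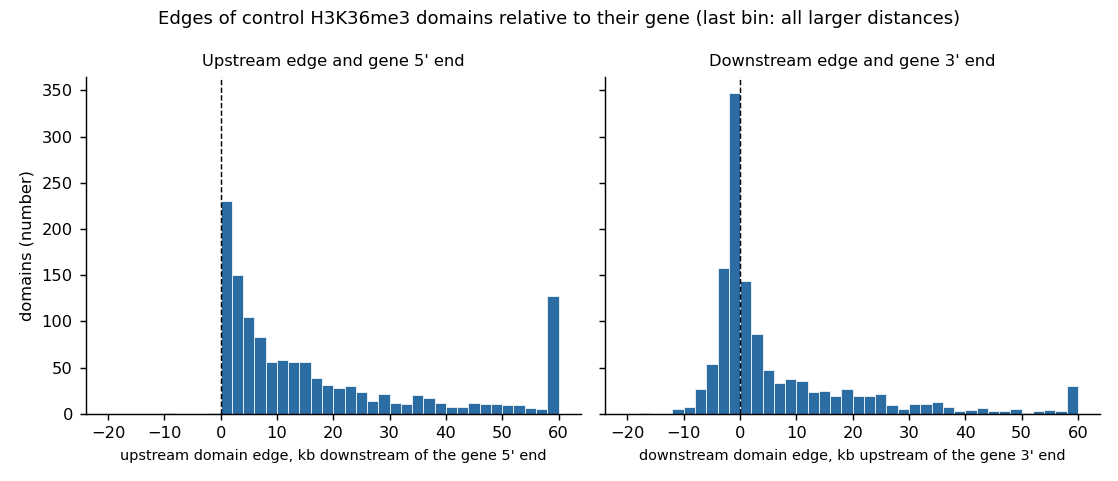
Number of domains (vertical axis) by the distance in kb between the upstream domain edge and the gene's 5′ end (left) and between the downstream domain edge and the gene's 3′ end (right), for the 1256 domains whose main gene has a known strand. Positive values lie inside the gene, dashed lines mark the gene ends, and the last bin collects all larger distances. Almost no upstream edge lies before the 5′ end (2 domains), while downstream edges gather around the 3′ end, with 599 of the domains holding it.

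Where a domain touched 2 genes, these mostly ended towards each other. The strand of both genes was known for 199 of the 279 such domains. Of these 173 were convergent pairs, whose 3′ ends face each other, 23 were tandem and 3 divergent. The longest domain covered 2 genes on the same strand, Lig1, the DNA ligase of replication, and Pla2g4c, a phospholipase gene. Of the 6 domains over more than 2 genes, 5 lay over Xntrpc, Xndc1, Trpc2 and Rnf121, over Ncaph2, Sco2 and Tymp, over Upf1, Gdf1 and Cers1, over Usp49, Tomm6 and Gm20517, and over Has3, Derpc and Chtf8.

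Counted by gene, 1644 of 20665 autosomal protein-coding genes (7.96%) had at least 1 bp under a domain, and 837 (4.05%) had at least 50% of their length under domains. For 126 genes at least 90% of the length was covered. Genes under domains had a median length of 25182 bp, against 17491 bp for all, and of genes longer than 10 kb 11.3% were touched. Among the largest territories were those of Utp20, a ribosome biogenesis gene, with 58961 bp in 4 domains, and Rif1, a regulator of replication timing, with 48039 bp in 2. Jade1 (47549 bp), Ep400 (46875 bp), Tfcp2l1 (46255 bp), Nedd4 (46126 bp), Cit (46063 bp), Nup188 (46019 bp) and Esrrb (45843 bp) were also among them. Tfcp2l1 and Esrrb encode transcription factors of the naive pluripotent state. In Rif1 the pair of domains was separated by less than 1 kb and covered 89.0% of the gene.

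The gene lists differed widely in the share of members under domains, and they also differ in gene length, so the number of members longer than 10 kb is given beside each count. DNA replication genes were under domains in 26 of 45 (35 longer than 10 kb), nuclear pore genes in 17 of 29 (29), spliceosome and splicing regulators in 27 of 56 (44) and DEAD and DEAH helicases in 24 of 51 (44). H3K36me3 readers were touched in 9 of 16 (15) and chromatin remodellers in 16 of 35 (34). Subunits of the H3K4 methyltransferase complexes were touched in 8 of 16 (13), translation factors in 16 of 43 (28), glycolysis genes in 6 of 15 (10), the CCT chaperonin, which folds actin and tubulin, in 4 of 8 (7), and aminoacyl-tRNA synthetases in 14 of 40 (34). All these shares lie above the 7.96% over all genes and the 11.3% over genes longer than 10 kb. Both of those include genes without a control peak, which cannot be under a domain. Most members of these lists carried one, from 14 of 16 readers to 29 of 29 nuclear pore genes. Of all 9741 genes with a control peak, 1644 were under a domain, a nearer baseline that these lists also exceeded.

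DNA repair, cohesin and condensin, kinesin and dynein, Usp deubiquitinase, elongation, proteasome, Wnt, Polycomb, DNA methylation and m6A lists lay between 22.2% and 36.2%. Members longer than 10 kb ran from 27 of 47 proteasome genes to 22 of 22 cohesin and condensin genes. Other lists had a smaller share of members under domains, given with the number longer than 10 kb in brackets where counted. The 7 H3K36 methyltransferase genes (7) had none under a domain although all 7 carried a control peak. Setd2 had 34530 bp under shorter control peaks. Zfp zinc finger genes were touched in 25 of 386 (330), or 6.48%, below the 7.96% over all genes. FGF and MAPK signalling genes were touched in 4 of 33 (26), or 12.1%. H3K36 demethylase genes were touched in 1 of 8 (7), Kdm2a, or 12.5%. RNA polymerase II, Mediator and Integrator genes were touched in 10 of 58 (36), or 17.2%. The FGF, demethylase and RNA polymerase II shares still lay above the 7.96% and the 11.3% over genes longer than 10 kb. Counted only over genes with a control peak, they were 4 of 25, 1 of 7 and 10 of 56. These lay near the 1644 of 9741 over all genes with a control peak. Cytosolic ribosomal protein genes are short, with a median of 3183 bp, and 2 of 81 (1) were touched although 77 carried a control peak. None of 1100 olfactory receptor genes (22), which are expressed in sensory neurons of the nose, was under a domain. Their median length is 950 bp and 2 carried any control peak, so little room was left for a domain.

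After knockdown most domains were no longer called at all. A domain is called kept here where at least 1 bp of it lay under a knockdown peak. This held for 317 of 1527 domains (20.8%, 18.8 to 22.9), against 6.55% of all autosomal control peaks and 5.80% of those up to 10 kb. In base pairs 4.31% of the domains (957451 bp) stayed under knockdown peaks, against 3.60% of the shorter peaks. A longer region is more easily overlapped by 1 bp, so the share of base pairs is the closer comparison. When both lists were limited to caller scores of at least 100, the kept share of domains was 8.84% and that of base pairs 2.48%. This limit left 1437 domains. It dropped long domains with low scores, among them those of Zfp462 (59.93) and Xrcc5 (61.15), so the set of domains changed too. With control peaks closer than 1 kb joined before the length rule, 2.81% of base pairs were kept. Absence from the knockdown list means that no peak passed the caller's threshold at that depth, not that the mark was gone.

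Inside the domains the knockdown list held 437 peaks, 14.4% of its 3040, and 433 of these lay wholly inside. With the score limit of 100 the number was 154. The 437 peaks came to 19.7 per Mb of domain, compared with 20.3 for control peaks up to 10 kb and 9.47 for those up to 10 kb that overlap a protein-coding gene. These remaining peaks were short, with a median of 1686 bp (quartiles 1412 and 2349), and their median density of 1.26 tags per kb per 1000000 kept tags was below the 1.73 of the control domains. The 2 medians come from separately called lists and cover different stretches, so they are no comparison of the same sites. Of the domains, 1210 held no knockdown peak, 228 held 1, 64 held 2, 19 held 3 and 6 held 4.

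What was left was concentrated in few domains. In kept domains the covered share ran from 3.79% to 87.9%, with a median of 13.6%. In 74 domains at least 25% was covered and in 15 at least 50%. The 71 domains with the most made up 50% of all base pairs kept, and the 10 with the most made up 13.6%. The knockdown list held 5 autosomal peaks above 10 kb, and 4 of them lay inside domains, over Agrn (17776 bp), Hjurp and Mroh2a (14111 bp), Ezr and Sytl3 (12606 bp) and Cep57l1 (12320 bp).

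The single domain with the most kept sequence was that of Agrn (chr4:156161317-156188717), of which 19160 bp or 69.9% lay under 2 knockdown peaks, and the second Agrn start printed above lies in it. The larger of these 2 peaks held 49.8 tags per kb and the whole control domain 118. Both are raw values from lists of unequal depth and cover different stretches, so they are no comparison of the same site. The caller's FDR for this domain was 13.3%, so it is left out where an FDR of 5% or less is required. Of the 22 domains above that limit 17 (77.3%) were kept. Among the named domains a high FDR did not go with a low caller score. The Agrn domain had a score of 2204 and that of Usp19 2343 at an FDR of 20%, whereas that of Xrcc5 had 61.15 at 0.18%. Zfp462, a zinc finger gene, kept 14496 bp (47.9%) in 3 peaks in chr4:54995628-55025874. Hjurp, which encodes the chaperone of the centromeric histone CENP-A, shared a domain with Mroh2a (chr1:88248738-88277302) that kept 14111 bp (49.4%) in 1 peak. Prpf8 (chr11:75488397-75510025) kept 13169 bp (60.9%) in 4 peaks spread over the whole domain.

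Lig1 and Pla2g4c, in the longest domain (chr7:13279883-13316162, 36280 bp), kept 12880 bp (35.5%) in 4 peaks. Ezr, which encodes the membrane linker ezrin, and Sytl3 (chr17:6733724-6759622) kept 12606 bp (48.7%), and Cep57l1 (chr10:41792595-41809238) kept 12320 bp (74.0%). Fasn, the fatty acid synthase gene (chr11:120806311-120823158), kept 9636 bp (57.2%) in 3 peaks. Sf3a1, a U2 splicing factor gene (chr11:4160784-4182047), also held 4 knockdown peaks, over 31.6% of its domain. The map of these domains shows both single long remnants and chains of short ones.

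**Figure D2:**
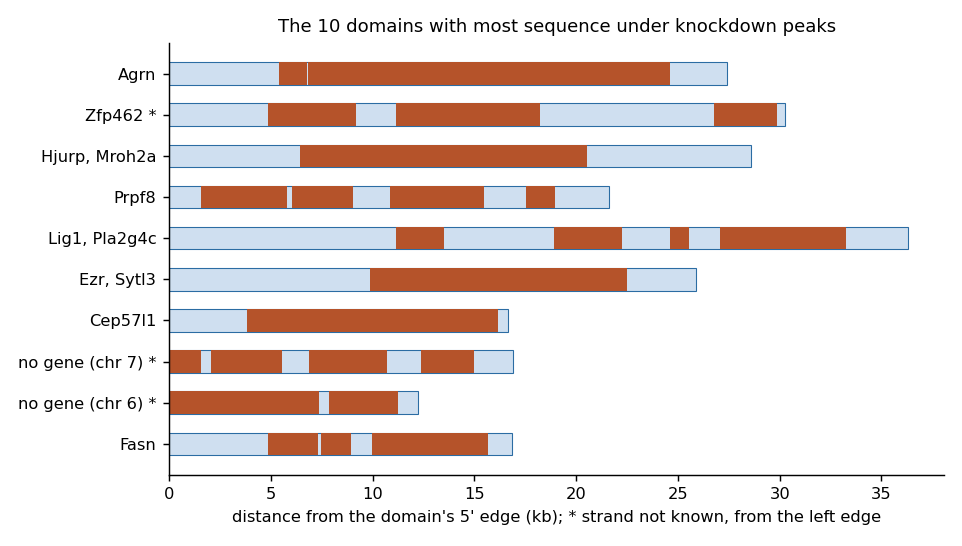
The 10 domains with most base pairs under knockdown peaks, drawn to scale in kb from the domain edge on the gene's 5′ side (from the left edge where marked with an asterisk). Pale bars are control domains and dark stretches are knockdown peaks; the Agrn domain keeps 69.9% of its length, mostly as 1 stretch of 17776 bp, whereas Prpf8 keeps 60.9% in 4 separate stretches.

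Other very long domains varied in what they kept, beside the 4.31% of base pairs kept over all domains. Of the 10 longest, those of Ago2, the small-RNA-guided Argonaute (chr15:73100670-73131752), Ipo7, a nuclear import receptor (chr7:110028375-110058908), and Jade1 (chr3:41586320-41616622) held no knockdown peak. Xrcc5, the Ku80 gene of DNA end joining, kept 13.4% of 35858 bp, Tfcp2l1 4.40% of 35762 bp, Lsg1 8.92% of 32866 bp, Sun1 3.79% of 31292 bp and Dot1l with Plekhj1 8.81% of 30439 bp. Kpnb1, the importin beta gene, kept more, 21.7% of 30517 bp. The 10 longest thus ranged from 0 to 35.5% kept, the highest being the domain of Lig1 and Pla2g4c.

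Dense control signal did not always go with a knockdown peak either. The densest domain of all, chr9:123927249-123937806, lay in no protein-coding gene (the nearest, Ccr1, is 24320 bp away), held 149 tags per kb at the lowest caller fold of any domain (3.51), and held no knockdown peak. The next densest lost domains were those of Mars1 with Ddit3 (84.6 tags per kb), Pfas (83.7), Cdc42bpg (82.0) and Usp19 (81.8). Mars1 encodes methionyl-tRNA synthetase and Pfas an enzyme of purine synthesis.

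By length class the kept share of domains rose from 13.5% (10.7 to 16.6) at 10 to 12 kb to 17.9% at 12 to 15 kb, 28.0% at 15 to 20 kb and 37.1% (30.0 to 44.8) above 20 kb. The share of base pairs kept rose too, at 2.88%, 3.59%, 4.76% and 6.75%. Density rose alongside, from a median of 60.5 to 67.4 tags per kb, and so did the caller's fold, from 5.97 to 7.06. The caller's score moved the other way, from a median of 602 to 209, so across these length classes the score fell while density rose. Between kept and lost domains score and density went the same way, with median scores of 630 and 444. Whether length or density accounts for the rise was not tested.

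**Figure D3:**
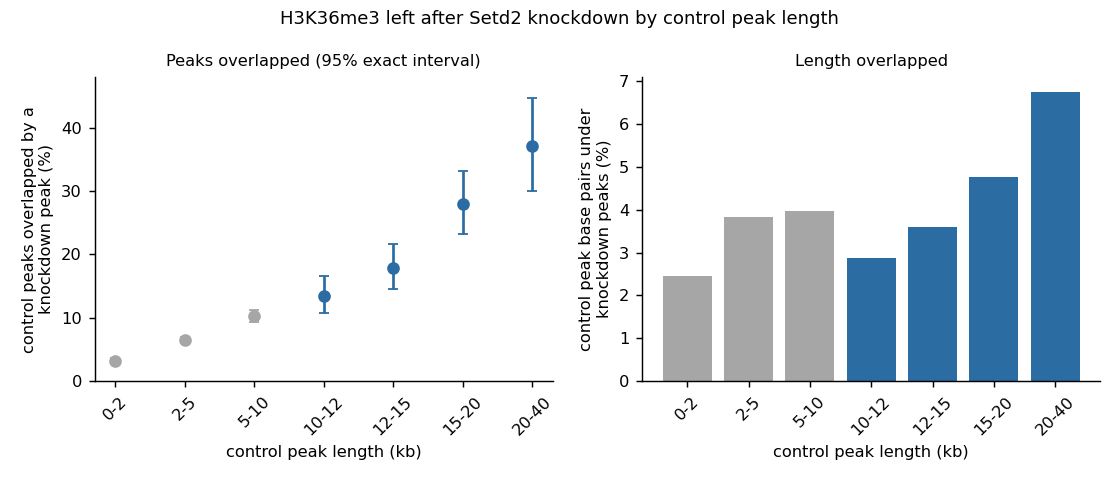
Percent of control peaks overlapped by a knockdown peak (left, points with exact 95% intervals) and percent of control base pairs under knockdown peaks (right, bars) by control peak length in kb. Grey marks peaks up to 10 kb, genic and intergenic together, and blue marks domains; among domains the base-pair share climbs from 2.88% to 6.75%.

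The comparison with shorter peaks was also made at like density. Over all genic control peaks up to 10 kb, 1.75% of base pairs were kept, less than the 4.31% of the domains. The domains were split into 4 classes of nearly equal number by control tags per kb, and shorter genic peaks were read within the same limits. In the sparsest class (48.3 to 58.5 tags per kb) 0.547% of domain base pairs were kept, against 1.12% in shorter genic peaks. In the next 2 classes the shares were 1.07% against 2.44% and 2.62% against 4.99%. In the densest (68.1 to 149 tags per kb) they were 11.6% against 15.2%. At like density the domains thus kept a smaller share of their length in 4 of 4 classes, the opposite of the pooled order.

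Of the shorter genic peaks, 60.8% were sparser than the sparsest domain, and these kept 0.590% of their base pairs. With genic peaks of 5 to 10 kb alone, a comparison added after the data had been seen, the shares were 0.778%, 1.96%, 4.15% and 15.1%, again above those of the domains in all 4 classes. Counted as peaks overlapped by at least 1 bp, the order was the other way, with 52.1% (47.0 to 57.2) of domains against 37.9% (33.4 to 42.5) of shorter genic peaks in the densest class. Without replicates no test of these differences was made.

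**Figure D4:**
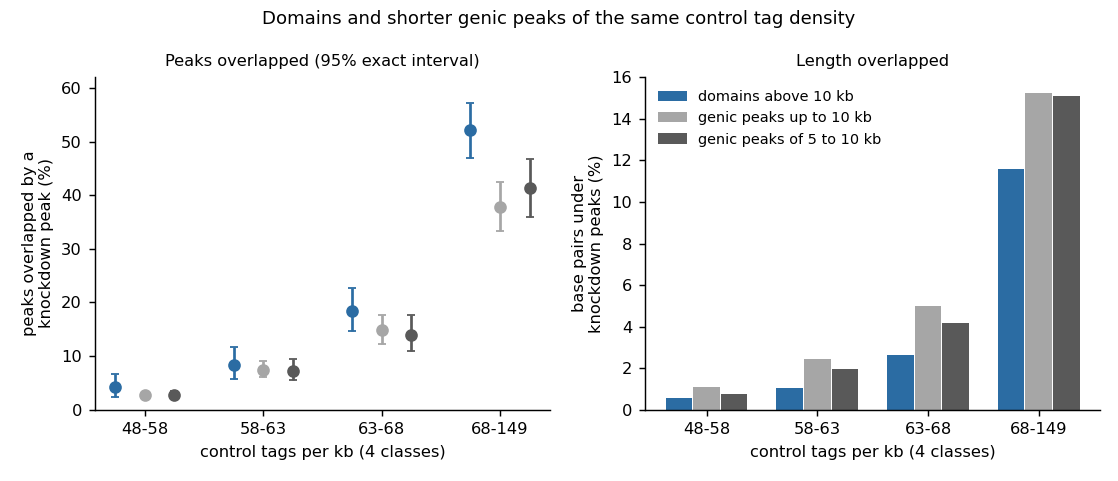
Percent of peaks overlapped by a knockdown peak (left, points with exact 95% intervals) and percent of base pairs under knockdown peaks (right, bars), within the 4 classes of domain density in control tags per kb. Domains (blue), genic peaks up to 10 kb (light grey) and genic peaks of 5 to 10 kb (dark grey) all rise with density, and in base pairs the domains are lowest in each class, from 0.547% to 11.6%.

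Kept and lost domains differed in the control list as well. Kept domains had a median of 15010 bp and 70.7 tags per kb (quartiles 65.8 and 76.0), and lost ones 12782 bp and 61.4 tags per kb (quartiles 57.6 and 65.9). Kept domains held the 3′ end of their gene in 65.9% (59.8 to 71.6), lost ones in 42.9% (39.8 to 46.1). Their upstream edges stood a median of 5646 bp and 11056 bp from the gene's 5′ end, and their genes had median lengths of 24756 and 32071 bp. Length and density differed between the same domains, and the part of either in these differences was not tested.

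Within domains the remnants lay off-centre, towards the 3′ side. The 1256 domains of known strand were each cut into 10 equal bins from the gene's 5′ to its 3′ side. The share of base pairs under knockdown peaks rose from 1.15% in the first bin to 5.11% in the fifth and to 6.86% in the eighth, then fell to 4.01% in the ninth and 0.830% in the last. The 5 bins on the 3′ side held 58.0% of the knockdown base pairs, and 57.5% in domains over 1 gene. Of the 261 kept domains of known strand, 152 had more on the 3′ side and 109 more on the 5′ side. The long remnants at Agrn, Ezr and Cep57l1 spanned the middle of their domains.

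**Figure D5:**
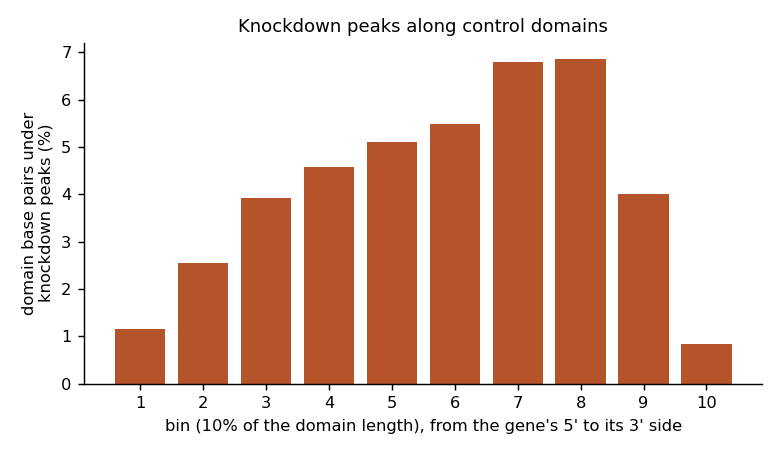
Percent of domain base pairs under knockdown peaks (vertical axis) in each of 10 equal bins of the domain, from the gene's 5′ side (1) to its 3′ side (10), over 1256 domains of known strand. Bars rise to 6.86% in the eighth bin and are lowest at both ends, 1.15% and 0.830%.

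By gene, 315 of the 1644 genes under domains (19.2%) had knockdown base pairs inside their domains. Translation factors did so in 8 of 16, CCT chaperonin genes in 3 of 4, H3K4 methyltransferase complex genes in 5 of 8 and Zfp genes in 12 of 25. Eif4g1 and Eif4g2, scaffolds of translation initiation, kept 8050 bp (48.6%) and 7485 bp (52.4%) of their domain sequence, and Eef1g, an elongation factor subunit, 4792 bp (44.1%). Cct2 kept 5758 bp (47.0%). Setd1b kept 2911 bp (25.3%) and Kmt2a 1506 bp (4.45%), whereas Setd1a, covered over 94.8% of its length in control, kept none.

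DNA replication genes kept some in 8 of 26 and splicing genes in 9 of 27. Mcm5, a subunit of the replicative helicase, kept 5027 bp (27.2%), while Mcm4, another subunit of the same ring, kept none of 12582 bp. Sf3a1 kept 31.6%, while Sf3a3, its partner in the same complex, kept none of 16921 bp. Zfp445, a regulator of imprinting, kept 7420 bp (55.7%), and Usp24, a deubiquitinase gene, 13140 bp (36.8%) over both of its domains. Among naive pluripotency genes the 3 under domains, Klf5 (20.2%), Esrrb (8.52%) and Tfcp2l1 (3.40%), all kept some.

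The nuclear pore and reader lists kept nothing inside domains. The 17 nuclear pore genes under domains, with Nup50 covered over 81.8% and Nup188 over 79.5% of their length in control, had no knockdown base pair inside a domain. Neither had the 9 H3K36me3 readers, among them Msh6, the mismatch repair protein that binds the mark (96.1% covered), and Brpf1 (86.2%). Over all domain genes the share with knockdown base pairs was 19.2%, and the difference of these small lists from it was not tested. The demethylase, primitive endoderm and trophoblast lists, with 1 gene each under domains, had none either.

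Some genes held several domains. Of 142 such genes, 106 (74.6%) had no kept domain, close to the 78.0% of the 1502 genes under 1 domain. A further 29 had some of their domains kept and 7 all of them. Nup188 held 3 domains of 62.4, 71.1 and 69.3 tags per kb, Utp20 held 4 of 54.7 to 61.2, and Cit held 4 of 54.7 to 64.4, and none of these 11 domains had a knockdown peak. Usp24 was one of the 7, with 6941 and 6199 bp left in domains of 95.8 and 76.7 tags per kb. These domains share a gene and are not independent observations.

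The 10 domains without any protein-coding gene kept more: 5 of them were overlapped, over 27.2% of their base pairs in sum. A domain on chr6:37828563-37840802, 30009 bp from Trim24, had the highest covered share of all domains, 87.9% under 2 peaks. A domain on chr7:26688798-26705702, 2368 bp from Cyp2b23, kept 67.6% under 4 peaks. Intergenic control peaks up to 10 kb kept 18.2% of their base pairs. Reads that match several places in the genome were not examined.

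One of these 10 domains lay at imprinted Meg3 on chromosome 12. Meg3 is a maternally expressed long non-coding RNA next to Rtl1, a paternally expressed retrotransposon-derived gene that lies opposite a cluster of microRNAs. That domain lay over Meg3 outside Rtl1 (chr12:109544613-109560192, 15580 bp, 51.2 tags per kb). A further 2 overlapped Rtl1 (chr12:109560750-109574103 and chr12:109586212-109597360, 57.4 and 58.0 tags per kb), and the first of these 2 overlapped Meg3 as well. In control, Meg3 had 26560 of its 30734 bp under domains, Rian and Mirg had only shorter peaks, and Dlk1 had none. No knockdown peak lay in these domains.

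MicroRNA hairpins show what else lies in domains. Of 919 autosomal hairpins from RefSeq, 85 lay wholly inside 71 domains, 22 of them in kept domains and 7 under a knockdown peak. For scale, 7.96% of autosomal protein-coding genes were touched by a domain. That share asks for 1 bp of a gene and the hairpin count for the whole hairpin, so the measures are unlike. Of all domains 20.8% were kept, and 4.31% of their base pairs lay under knockdown peaks. The hairpin counts were not tested against these shares. The 2 domains that overlap Rtl1, of which 1 also overlaps Meg3, hold 12 hairpins. For each hairpin 1 mature sequence is printed here because they form 1 cluster whose domains held no knockdown peak. Seeds, bases 2 to 8 of the mature RNA, are in capitals. miR-3070-3p and miR-3070-2-3p share their seed, and miR-3071 lies on the strand opposite miR-136.
miR-770-5p: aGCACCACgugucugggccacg
miR-673-5p: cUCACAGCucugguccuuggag
miR-665-3p: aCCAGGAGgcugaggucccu
miR-3070-3p: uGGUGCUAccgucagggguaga
miR-3070-2-3p: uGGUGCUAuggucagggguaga
miR-431-5p: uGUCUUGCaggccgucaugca
miR-433-3p: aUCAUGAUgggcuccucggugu
miR-127-3p: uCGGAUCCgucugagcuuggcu
miR-434-3p: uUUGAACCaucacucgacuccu
miR-432: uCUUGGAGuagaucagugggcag
miR-136-5p: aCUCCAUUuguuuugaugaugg
miR-3071-5p: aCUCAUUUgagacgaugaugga

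The 7 hairpins that stayed under a knockdown peak lie in domains of Uggt1 (Mir6897), Dazap1 (Mir6911), Ankrd52 (Mir6914), Tkt (Mir3076), Plxnb2 (Mir7118), Lama5 with Adrm1 (Mir7005) and Cherp (Mir7068). Mir3076 was covered over 33 bp only, the other 6 over the whole hairpin. Their hosts' domains kept 1184 to 4118 bp. Tkt encodes transketolase of the pentose phosphate pathway and Uggt1 a folding sensor of the endoplasmic reticulum. The mark over a hairpin says nothing of whether the mature RNA is made. Among all 149 mature sequences in domains there were 145 different seeds, and 4 were shared by a pair. The 5p arms of miR-6911, miR-6914 and miR-7005 each shared a seed with another microRNA in a domain.
miR-6897-5p: uGGGGGCAgugucacacgcuguu
miR-6911-5p: uGGGCUGAgugggucuguggcau
miR-6914-5p: uCCUGGGGuggugguggccacaga
miR-3076-3p: cGCACUCUggucuucccuugcag
miR-7118-5p: uGGGGAAGgcgggagagggaac
miR-7005-5p: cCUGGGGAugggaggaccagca
miR-7068-5p: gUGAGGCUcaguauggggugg

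Domains stood on all 19 autosomes, from 36 on chromosome 18 to 141 on chromosome 11. The share of base pairs kept ran from 1.57% on chromosome 3 (55 domains) and 1.77% on chromosome 12 (53) to 6.60% on chromosome 18 and 7.23% on chromosome 4 (110). The Agrn and Zfp462 domains, both on chromosome 4, are part of that highest value.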

How the data were processed

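H3K36me3 ChIP and input libraries of control and Setd2 knockdown mouse embryonic stem cells were grouped by the treatment, antibody and genotype in the labels. The submitters' processing notes list Bowtie 1.1.2, FastQC 0.11.5 and the mm10 build. MACS 1.4.2 was run by the authors, per the file headers, on merged replicates 1 and 2 against merged inputs, with a p cutoff of 1e-05, a band width of 300 bp and 1 tag kept per position. The deposited tables give per peak the tag count, a score (-10*log10 of its p-value), the fold or ratio over local background and an FDR in percent, all as the authors' caller wrote them. The deposited BED files hold the peaks with an FDR of 5% or less and served as an alternative.

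Lengths, overlaps (at least 1 bp) and base pairs were computed from these tables in Python 3.11.15 with pandas 2.3.3, numpy 2.4.6 and SciPy 1.17.1, and the interval functions were tested on simulated data. Tags per kb are the deposited tag count divided by peak length, not normalized between lists. Genes came from a RefSeq table of GRCm38.p6. Strand and starts came from a RefSeq promoter table that matched 16457 of 20665 autosomal protein-coding genes, so results by strand cover only domains whose main gene matched. A domain's main gene is the one with the largest overlap. The domains, the 34 gene lists and the alternative settings were chosen with earlier results of these data known. Named domains are the 10 longest, the 10 with most knockdown base pairs, the 5 densest without any, the 5 longest without a protein-coding gene, the 5 over most genes, the 5 with most knockdown peaks and the 5 on each side of the length limit. Named genes are the 10 with most base pairs under domains and, from each list, the 2 with the highest share under domains and the 2 with most knockdown base pairs. Some that these rules name are not reported here. Hairpins, genes with several domains, the Meg3 locus and genes with further starts were chosen after their values were seen.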

Additional observations from a re-analysis of the deposited data

How the results depend on the processing

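The values below describe domains only; the comparisons with shorter peaks were not repeated under these settings, and the 2 peak lists have no replicates. With an FDR of 5% or less in both lists (1505 domains), 3.33% of base pairs were kept and 95.3% lay in protein-coding genes. This limit dropped the high-scoring Agrn domain, which kept the most base pairs. A caller score of 100 or more left 1437 domains, without long low-scoring ones such as those of Zfp462 and Xrcc5. At this score 8.84% of domains and 2.48% of base pairs were kept, 154 knockdown peaks lay inside and 95.2% of base pairs were genic. At a length limit of 8 kb (2480 domains) the values were 17.9%, 4.29% and 94.98% genic. At 20 kb (175 domains) they were 37.1%, 6.75% and 95.7% genic, with 112 knockdown peaks and 139 genes covered over at least 50%. With control peaks within 1 kb joined (2655 domains) they were 15.8%, 2.81% and 95.1% genic, with 1570 genes. Any overlap gave 1644 genes, 90% of the gene 126 and the domain's midpoint in the gene 1374, in place of 837. All annotated genes covered 95.8% of base pairs. Domains over 1 gene held the 3′ end in 37.9% and 57.5% of knockdown base pairs on the 3′ side, alternatives chosen after seeing the data. Including X and Y left the 5 values it was run for as they were. No domain lay there, so that outcome was fixed in advance. Asking for the knockdown peak's midpoint or 50% of it inside left the kept share and the number of knockdown peaks as they were. With 433 of the 437 peaks wholly inside, these settings had little room to change either. No paired analysis was possible because the lists were called on merged replicates, and for the same reason no replicate could be left out. The knockdown list rests on fewer tags, which limits what could be called in it, and the size of that effect was not tested.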
